A study of Mus musculus with 2 samples.

Results

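The 4 microRNAs (miRNAs) described here are mmu-miR-10a-5p, mmu-miR-10b-5p, mmu-miR-196a-5p and mmu-miR-196b-5p (written below without the mouse prefix mmu), the 5p products of the miR-10 and miR-196 genes that lie inside the Hox gene clusters. They were chosen by name, as miRNAs encoded in those clusters, and make up 4 of the 1247 mouse miRNAs with probes on the arrays and 4 of the 257 that were measured on both. Levels were measured with 2 one-colour Agilent miRNA arrays, 1 per group, in articular cartilage peeled from the knee joints of male mice aged 8 weeks. The control sample has the genotype wildtype. The other sample, called the knockout here, has the genotype Col2a1; Tsc1 KO, a deletion of Tsc1 that the series text describes as specific to Col2a1, the type II collagen gene of chondrocytes. Tsc1 restrains mTORC1, a kinase complex that drives growth, and the study asked how miRNA expression differs in osteoarthritis with stimulated mTORC1. The driver line behind the deletion and the number of mice in each sample are not given in the sources used here. The Tsc1 messenger RNA was not measured by these miRNA probes, so the deletion could not be checked here.

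With 1 array per group there is no replicate check, so no p-value is given and a difference compares these 2 samples and not the genotypes. Both arrays shared 1 slide, and genotype and slide position cannot be told apart. Each array carried 49880 miRNA spots, of which 19.6% were marked well above background in control and 21.1% in the knockout, and none was saturated. Intensities are background-subtracted spot brightness in the scanner's arbitrary units. Scaled values were set to each array's 75th percentile, taken over 476 probes that passed the background mark on both, a step that lowered every knockout minus control difference by 0.41 on the log2 scale. The error given with a difference is the standard error (SE) over spots, which holds technical noise within the arrays alone.

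Hox genes encode transcription factors that give positions along the body and limb axes their identity, and the miR-10 and miR-196 genes sit among them and are transcribed in overlapping domains. A miRNA guides a silencing complex to messenger RNAs that pair with its seed, bases 2 to 8 from the 5′ end, and several known targets of both families are Hox genes themselves. The miR-10 family targets Hoxd10 among others, and miR-196 directs cleavage of the Hoxb8 messenger RNA. Regional Hox expression persists in adult connective tissues.

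The mature sequences are printed because each pair shares a seed, shown in capitals, and the array had to tell its members apart by a single base. All 4 members matched RefSeq (GRCm38.p6), at 5 loci.
miR-10a-5p: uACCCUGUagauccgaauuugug
miR-10b-5p: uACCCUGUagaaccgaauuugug
miR-196a-5p: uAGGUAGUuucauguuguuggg
miR-196b-5p: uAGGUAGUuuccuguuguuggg
Counted from the 5′ end, the difference between miR-10a-5p and miR-10b-5p is U12A, and that between miR-196a-5p and miR-196b-5p is A12C. These are the only differences, so identity is 95.7% over 23 bases in the miR-10 pair and 95.5% over 22 bases in the miR-196 pair.

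The 5 precursor hairpins show where each mature 5p arm, in capitals, is cut from, and how far the genes diverge outside it.
Mir10a: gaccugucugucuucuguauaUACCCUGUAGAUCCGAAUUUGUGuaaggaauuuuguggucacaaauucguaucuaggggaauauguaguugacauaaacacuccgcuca
Mir10b: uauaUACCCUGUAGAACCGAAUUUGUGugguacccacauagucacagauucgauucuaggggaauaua
Mir196a-1: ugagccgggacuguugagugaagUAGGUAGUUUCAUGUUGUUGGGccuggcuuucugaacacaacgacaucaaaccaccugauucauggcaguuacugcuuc
Mir196a-2: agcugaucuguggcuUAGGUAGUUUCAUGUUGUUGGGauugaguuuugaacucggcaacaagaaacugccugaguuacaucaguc
Mir196b: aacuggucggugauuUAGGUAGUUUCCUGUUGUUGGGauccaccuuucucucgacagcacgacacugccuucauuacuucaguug
In GRCm38.p6, miR-10a-5p lies at chr11:96317186-96317208 on the plus strand, within the span of Hoxb3 and between Hoxb5 and Hoxb4. miR-10b-5p lies at chr2:74726074-74726096 on the plus strand, within the spans of Hoxd3 and Hoxd4. miR-196a-5p is made from 2 genes, Mir196a-1 at chr11:96265187-96265208 (plus strand, between Hoxb13 and Hoxb9) and Mir196a-2 at chr15:102973365-102973386 (plus strand, between Hoxc10 and Hoxc9). miR-196b-5p lies at chr6:52230129-52230150 on the minus strand, between Hoxa9 and Hoxa10. The 2 sources of miR-196a-5p give the same mature sequence, which no probe can assign to either gene.

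Members were read by 10 probes of the array, DNA oligonucleotides that pair with the miRNA from its 3′ end. The longest probe of each member is shown because the capital letter, opposite base 12 of the miRNA, is the single base on which the array separated it from its partner.
miR-10a-5p probe: cacaaattcggAtctacaggg
miR-10b-5p probe: cacaaattcggTtctacaggg
miR-196a-5p probe: cccaacaacaTgaaactaccta
miR-196b-5p probe: cccaacaacaGgaaactacc
The differing base stands at position 12 of the miR-10 probes and at position 11 of the miR-196 probes, counted from the probe's 5′ end. How far each probe also captured the other member of its pair was not tested.

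All 4 members had a higher scaled signal on the knockout array, whereas 152 of the 257 measured miRNAs had a lower one. The difference was small for miR-10a-5p and larger for the other 3 members. miR-10a-5p was at a scaled intensity of 139 in control and 154 in the knockout, which is 0.15 ± 0.017 on the log2 scale and 1.11-fold. miR-10b-5p was at 99.4 and 264, a log2 difference of 1.41 ± 0.026, or 2.65-fold. miR-196a-5p was at 82.3 and 233, a log2 difference of 1.5 ± 0.033, or 2.83-fold. miR-196b-5p was at 54.4 and 175, a log2 difference of 1.69 ± 0.030, or 3.22-fold. Thus 3 of the 4 members were at least 2-fold higher, beside 40 of the 257 measured miRNAs (15.6%), and another 45 miRNAs (17.5%) were at least 2-fold lower. The median log2 difference of all 257 was -0.22, so miR-10a-5p lay 0.37 above it and miR-196b-5p 1.90 above it. Ordered from the most raised, miR-196b-5p stood at place 5 of 257, miR-196a-5p at 10, miR-10b-5p at 17 and miR-10a-5p at 89.

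**Figure D1:**
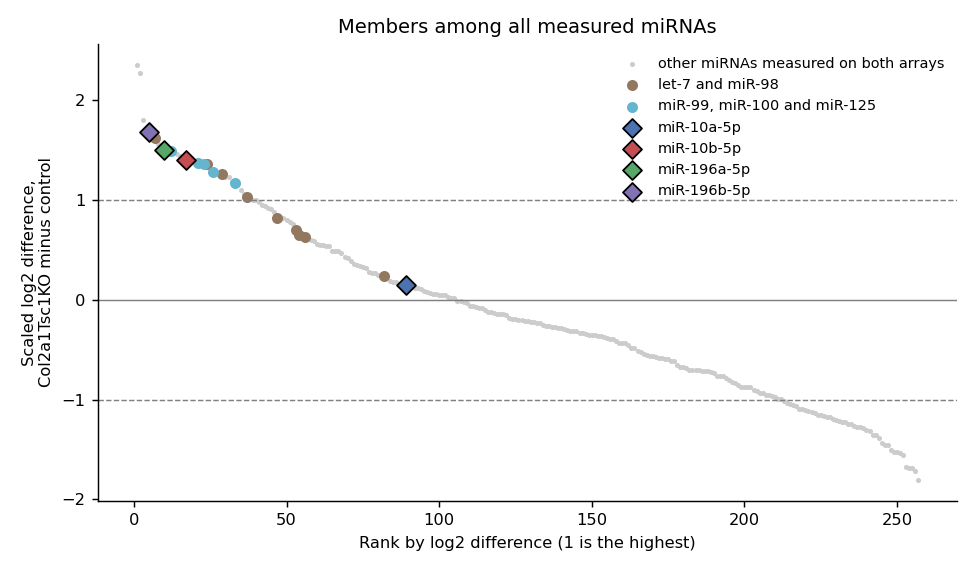
Knockout minus control log2 differences of the 257 miRNAs measured on both arrays, ordered from highest to lowest, with the 4 members as diamonds, let-7 and the miR-99, miR-100 and miR-125 relatives in colour, and dashed lines at 2-fold. miR-196b-5p, miR-196a-5p and miR-10b-5p sit at the raised end with differences of 1.69, 1.5 and 1.41, and miR-10a-5p sits at place 89 with 0.15.

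The members of the miR-10 pair, which share a seed, were read by probes of 20 and 21 bases each. Before scaling, the 21-base probe of miR-10b-5p gave spots of 139, 157 and 165 (lowest, median and highest of 19) in control and of 492, 529 and 571 (19 spots) in the knockout. Its 20-base probe gave 39.9, 48.55 and 55.4 (20 spots) against 144, 176 and 213 (19 spots). On both probes every knockout spot was brighter than every control spot, and the scaled log2 differences were 1.35 ± 0.020 and 1.46 ± 0.048.

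The 21-base probe of miR-10a-5p gave unscaled spots of 164, 179 and 194 (19 spots) in control and of 259, 282 and 297 (15 spots) in the knockout. Its 20-base probe gave 75.7, 81.9 and 88.2 (19 spots) against 101, 113 and 127 (19 spots). The arrays did not overlap on either probe before scaling. After scaling, the 21-base spots ran from 189 to 224 in control and from 225 to 258 in the knockout, a log2 difference of 0.24 ± 0.020. The 20-base spots overlapped after scaling, from 87.3 to 102 against 87.6 to 110.2, a log2 difference of 0.06 ± 0.027. The sign of the miR-10a-5p difference stayed above 0 under the 14 alternative settings, but its size ran from 0.13 to 0.68.

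The log2 difference of miR-10b-5p exceeded that of miR-10a-5p by 1.26 ± 0.031, a 2.39-fold gap between their changes. A constant scaling of each array cancels in this gap, since both members were read on the same arrays, while quantile normalization can move it. Under the alternatives the gap ran from 0.82 to 1.48.

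**Figure D2:**
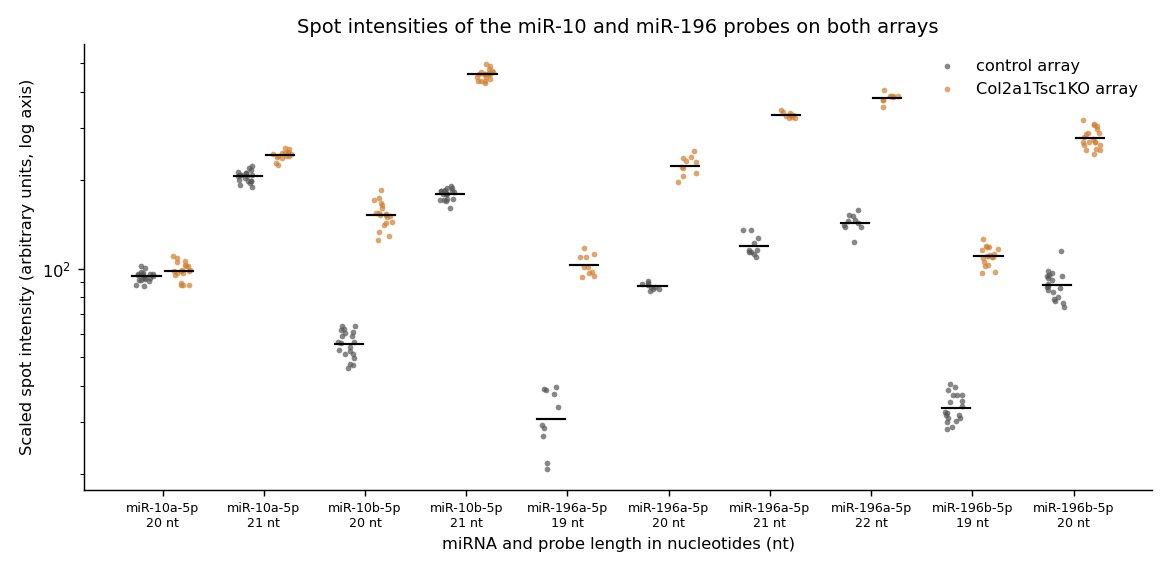
Scaled intensity, on a log axis, of the single spots of each member's probes on the control (grey) and knockout (orange) arrays, with a line at the geometric mean of each set of spots. Every knockout spot of the miR-10b-5p, miR-196a-5p and miR-196b-5p probes lies above the control spots, while the spots of the 20-base miR-10a-5p probe overlap, from 87.3 to 102 against 87.6 to 110.2.

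The miR-196 pair was raised by similar amounts. The longest probe of miR-196a-5p, which pairs with all 22 bases, gave unscaled spots of 107, 125 and 137 (10 spots) in control and of 409, 444 and 466 (9 spots) in the knockout, a scaled log2 difference of 1.41 ± 0.036. Its 21-base probe gave 95.1, 100 and 117 (10 spots) against 374, 383 and 398 (9 spots), a difference of 1.48 ± 0.036. On both probes the arrays stood apart with no overlap.

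The 20-base probe of miR-196a-5p gave 72.6, 75.1 and 78.6 (9 spots) in control and 227, 260.5 and 289 (10 spots) in the knockout, a difference of 1.36 ± 0.036. Its 19-base probe gave 18, 27.4 and 34.4 (10 spots, 8 of them well above background) against 108, 117 and 135 (10 spots), and the highest difference of the 4 probes, 1.74 ± 0.11. The other 3 probes of miR-196a-5p all lay below 1.5.

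miR-196b-5p was read by 2 probes. The 20-base probe gave unscaled spots of 64.1, 75.7 and 99.4 (19 spots) in control and of 283, 314 and 370 (20 spots) in the knockout, a scaled difference of 1.66 ± 0.043. The 19-base probe gave 24.6, 28.1 and 35 (19 spots) against 111, 127 and 145 (18 spots), a difference of 1.71 ± 0.043. Neither probe had overlapping spots, and the 2 differences lay within the sum of their standard errors.

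The difference of miR-196b-5p exceeded that of miR-196a-5p by 0.19 ± 0.045. Both probes of miR-196b-5p lay inside the range between the probes of miR-196a-5p, from 1.36 to 1.74. The upper end of that range is the 19-base probe alone, which was near background in control. Both probes of miR-196b-5p lay above the other miR-196a-5p probes, the highest of which was at 1.48. The gap ran from 0.04 to 0.27 under the alternatives, with 0.27 when every spot had to be well above background. For scale, over the 191 measured miRNAs with more than 1 probe, the probes of a miRNA spanned a median log2 range of 0.083, with a 90th percentile of 0.22.

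Of the 160 spots printed for the members on each array, 143 positions were usable on both, and each of the 143 was brighter on the knockout array before scaling. Without scaling, the median log2 difference of all 257 measured miRNAs was also above 0, at 0.19. After scaling 138 of the 143 stayed brighter. These were 37 of 37 for miR-10b-5p, 37 of 37 for miR-196a-5p, 36 of 36 for miR-196b-5p and 28 of 33 for miR-10a-5p, so the 5 exceptions belonged to miR-10a-5p. Spots of a probe share its sample and are not replicates of a genotype.

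**Figure D3:**
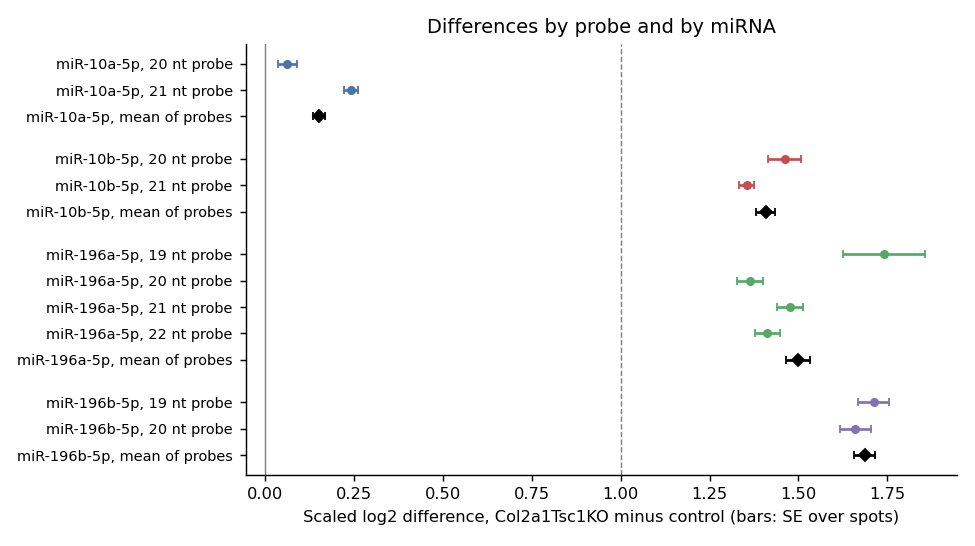
Scaled log2 difference, knockout minus control, of each of the 10 member probes, and of each miRNA's mean of probes (black), with the SE over spots as bars and a dashed line at 2-fold. The 2 miR-10a-5p probes lie at 0.06 and 0.24, and the other 8 probes lie between 1.35 and 1.74.

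The submitters' deposited log2 values gave the same order of differences. They rose from 6.91 to 7.05 for miR-10a-5p, from 6.45 to 8.07 for miR-10b-5p, from 6.11 to 7.75 for miR-196a-5p and from 5.47 to 7.22 for miR-196b-5p. The software's total signals, a sum over a miRNA's probes with the software's own error in parentheses, were 102 (8.05) and 155 (12.2) for miR-10a-5p. For miR-10b-5p they were 79.5 (6.81) and 278 (22.1), for miR-196a-5p 64.8 (3.94) and 237 (12.9), and for miR-196b-5p 41.4 (4.03) and 177 (13.9). These totals are not scaled between the arrays, a step that lowered log2 differences by 0.41 in the main setting. Unscaled, each member's total was higher in the knockout by more than the sum of both errors. Used as an alternative setting, the totals gave miR-10a-5p a log2 difference of 0.68, beside 0.15 in the main setting. It was 0.39 without totals carried over from other entries. Whether the excess over both errors holds after scaling was not tested.

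**Figure D4:**
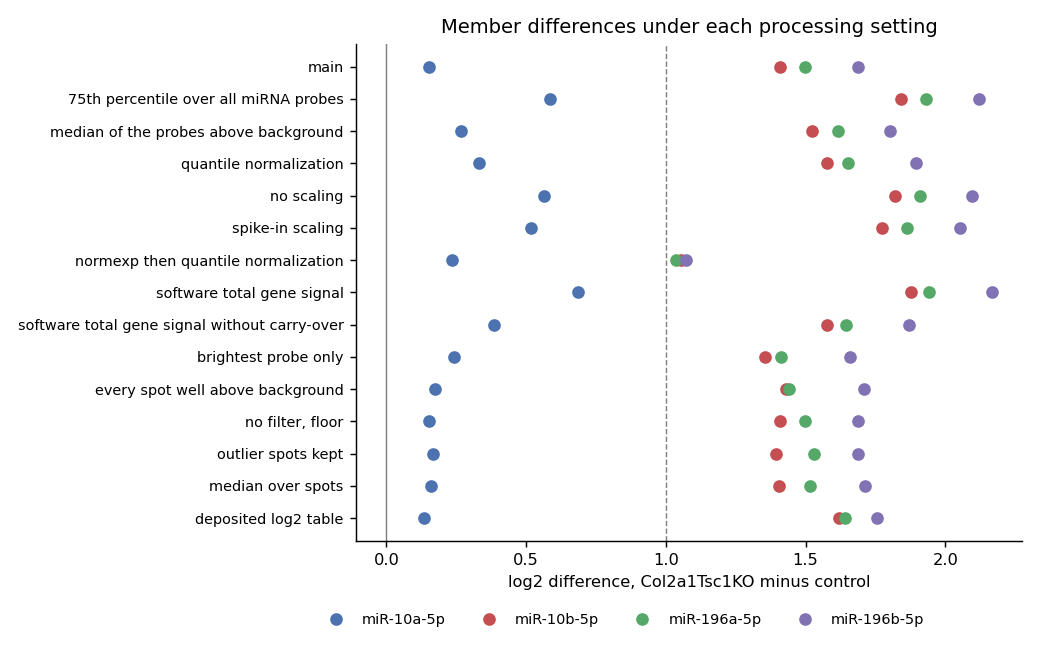
Knockout minus control log2 difference of each member under the main setting and the 14 alternatives. miR-10a-5p stays between 0.13 and 0.68 and the other 3 stay between 1.04 and 2.17, past the 2-fold line in every setting.

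The opposite arms of the same hairpins and the 2 arms of miR-615, a further miRNA of the Hoxc cluster, were not measurable. All 7 of these miRNAs (miR-10a-3p, miR-10b-3p, miR-196a-1-3p, miR-196a-2-3p, miR-196b-3p, miR-615-5p and miR-615-3p) had probes. None of their 262 usable control spots or 263 usable knockout spots was well above background, and the brightest single spot reached 19.2 in control and 18.2 in the knockout. The median over spots ran from -6.97 (miR-196a-2-3p) to 12.95 (miR-10a-3p) in control and from -5.68 to 5.13 for the same arms in the knockout, where negative control spots had medians of 5.02 and 4.93. The arms that would tell Mir196a-1 from Mir196a-2 were among them, so the rise of miR-196a-5p could not be assigned to a locus.

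The miR-10 superfamily extends to miRNAs that share part of its seed. miR-99 and miR-100 carry the seed ACCCGUA, which has ACCC at bases 2 to 5 in common with miR-10, and miR-125 carries CCCUGAG, which has CCCUG in common. All 5 of these relatives were measured and all 5 passed 2-fold in the knockout, beside 40 of all 257 miRNAs (15.6%). Their median log2 difference was 1.36 against -0.22 for all 257. miR-100-5p differed by 1.36 ± 0.029, miR-99a-5p by 1.28 ± 0.018, miR-125a-5p by 1.49 ± 0.035 and miR-125b-5p by 1.18 ± 0.011. miR-10b-5p lay inside this range of 1.18 to 1.49 and miR-10a-5p below it. After normexp background correction followed by quantile normalization, 2 of the 5 passed 2-fold, with a median of 0.94, beside 16 of all 257 (6.23%).

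The seed of let-7, GAGGUAG, shares AGGUAG with miR-196, and let-7 miRNAs restrain growth regulators such as Lin28 and Ras. All 9 let-7 miRNAs on the list were measured and lay above 0, whereas 152 of all 257 measured miRNAs lay below 0. Of the let-7 miRNAs 4 of 9 were past 2-fold, beside 40 of all 257 (15.6%). The let-7 median was 0.82, against -0.22 for all 257. let-7e-5p stood highest at 1.62 and miR-98-5p lowest at 0.24. Both miR-196 miRNAs lay above the let-7 median, and only let-7e-5p lay between them. The let-7 count at least 2-fold higher moved to 8 without scaling, where 59 of all 257 (23%) were. It moved to 2 after quantile normalization, where 40 of all 257 (15.6%) were.

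Members of name groups, miRNAs that share a number and arm and differ in the letter, allow the miR-10 gap to be set beside others. Among 27 such groups, holding 70 measured miRNAs, the differences within a group spanned a median log2 range of 0.33. The miR-10-5p group, with 1.26, had the range at place 4 from the widest. The miR-196-5p group, with 0.19, stood at place 21. These places mix groups of different sizes, and a larger group can span more. Among the 20 groups of 2 miRNAs the median range was 0.32. Of these, 3 had a range at least that of miR-10-5p, itself included, and 7 at most that of miR-196-5p, itself included. Wider ranges than that of miR-10-5p included 2.67 for miR-146-5p, 2.07 for miR-130-3p and 1.56 for miR-669-3p. The grouping was chosen after the miR-10 values were seen and is a description.

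**Figure D5:**
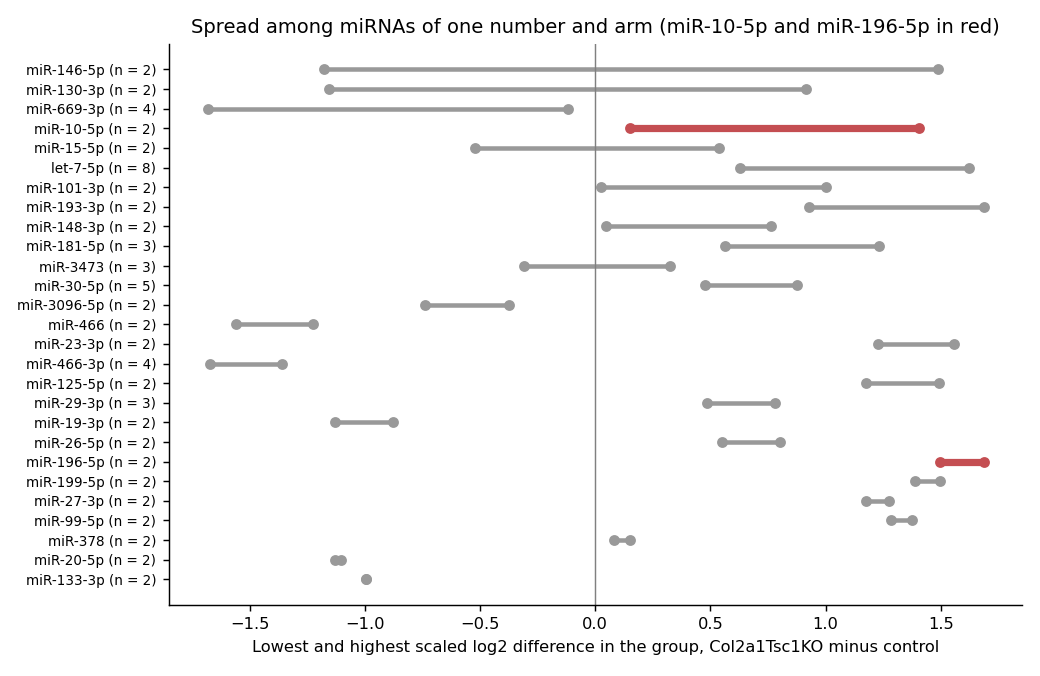
Lowest and highest log2 difference, knockout minus control, in each of the 27 groups of miRNAs that share a number and arm, joined by a line, with the number of miRNAs (n) beside the name. The miR-10-5p and miR-196-5p lines are red, with ranges of 1.26 and 0.19.

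The 3 miRNAs with the nearest log2 difference to each member were found over these 2 samples. For miR-196b-5p these were miR-193b-3p (1.69), miR-455-3p (1.71) and let-7e-5p (1.62). For miR-196a-5p they were miR-199a-5p (1.5), miR-125a-5p (1.49) and miR-146a-5p (1.49). For miR-10b-5p they were miR-152-3p (1.41), miR-210-3p (1.42) and miR-199b-5p (1.39). miR-10a-5p had miR-378b (0.15), miR-155-5p (0.15) and miR-126-5p (0.14) beside it. With 1 array per group such nearness is a likeness of 2 numbers and no more.

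Markers of the cells that peeled cartilage could hold differed between the samples too, and their part in the member differences was not tested. Lower levels from fewer cells of a type and from less RNA per cell cannot be told apart in such bulk samples. Chondrocyte markers, which define the labelled tissue, were measured on both arrays for 4 of 4. Of them 3 passed 2-fold, beside 40 of all 257 miRNAs (15.6%). That marker count was 1 after quantile normalization, 0 after normexp with quantile normalization, and 2 in the deposited table and with the brightest probe alone. miR-140-5p was at 1.38 ± 0.0096, miR-140-3p at 1.01 and miR-455-3p at 1.71 ± 0.055. The miR-455-3p value came from 1 of its 2 probes and ran from 0.85 to 2.38 under 13 alternatives. Over both probes 18 of its 38 control spots were well above background. In contrast, miR-455-5p was at -0.03 ± 0.14 and above 0 in 10 of its 13 alternatives. Of the fibroblast and smooth muscle markers, miR-143-3p was at 1.37. miR-145a-5p had 37 of 37 spots well above background in the knockout and 6 of 38 in control, too few to count as measured there. Its bound was at least 1.54-fold higher in the knockout. Of the skeletal muscle markers 3 of 4 were below 0 in the main setting, beside 152 of all 257 measured miRNAs there. miR-1a-3p was at -0.94, miR-133a-3p at -0.99 and the list median at -0.97, while miR-206-3p was at 0.05 on 1 of its 2 probes. Leukocyte markers were likewise below 0 for 3 of 4, with a median of -0.77, miR-223-3p at -1.17 and miR-142-3p at -0.95. The exception, miR-150-5p, was at 0.64 on 1 of its 2 probes. Of the other lists, endothelial miR-126-3p was at 0.35 (below 0 after both quantile settings). The red cell markers miR-144-3p and miR-451a were at 1.51 and 0.55 (the latter below 0 after the same settings). A further listed red cell marker, miR-486-5p, had no probes under that name. None of the 4 epithelial markers was well above background on either array.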

How the data were processed

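The authors used Agilent Feature Extraction 10.7, per the submitters' processing notes, and its deposited files give a background-subtracted intensity, a raw mean and a local background intensity for each of 52044 spots, with no scaling between arrays. The authors also deposited a table of log2 values. Its processing steps are not given in the sources used here. Each column's median equals its floor, -3.26 for control and -3.32 for the knockout, its direction follows the signals, and all 337 control values above the floor recur to 5 decimals among the 358 of the knockout column, as quantile normalization leaves them. Other steps are unknown. Here, outlier spots were dropped, each probe's spots were averaged as log2 intensity, and a probe was well above background when over 50% of its spots were so marked. Arrays were scaled to the 75th percentile over probes well above background on both, and a miRNA's difference was the mean over such probes. miR-145a-5p, whose probes passed this rule on 1 array only, received a bound. Each probe was set against the dim array's lowest signal well above background, or its own signal there if higher, and probes were averaged. A fold of 2 served as a threshold for counts alone. The named miRNAs were the members, up to 4 per related list, up to 3 per cell type list, and the 3 nearest to each member. The members and lists were chosen with earlier results of these data known. Alternatives covered scaling, background correction (normexp, offset 50, limma 3.58.1 in R 4.3.3), the signal, filters and probes. Scripts ran in Python 3.11.15 with pandas 2.3.3 and were tested on simulated data. The number of arrays limits the precision.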

Additional observations from a re-analysis of the deposited data

Results flagged for a closer look

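miR-615-3p, a miRNA of the Hoxc cluster, had a deposited log2 value of -0.90 on the knockout array while its control value stood at the table's floor of -3.26, a signal in a table outside the main measurement. In the scanner file its 17-base probe gave spots of 11.1, 15 and 18.2 (lowest, median and highest of 9) in the knockout and of 3.64, 12 and 17.2 (10 spots) in control, and none was well above background. The software's total signal for it on the knockout array was 249, beside 247 for the entry before it in name order, miR-598-3p, and 2.99 for the sum of its own probe totals. The totals of the 4 members equalled the sums of their own probe totals.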

How the results depend on the processing

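Under all 14 alternatives 3 of 4 members were at least 2-fold higher and 4 of 4 were above 0. The share of all miRNAs at least 2-fold higher ran from 2.97% of 1247 (no filter) to 26.3% of 304 (software totals). Log2 differences are given in the order miR-10a-5p, miR-10b-5p, miR-196a-5p, miR-196b-5p. They were 0.59, 1.84, 1.93 and 2.12 with all probes setting the 75th percentile, 0.27, 1.52, 1.61 and 1.80 with median scaling, 0.33, 1.58, 1.65 and 1.90 with quantile normalization, 0.56, 1.82, 1.91 and 2.10 without scaling, and 0.52, 1.77, 1.86 and 2.05 with spike-in scaling. They were 0.23, 1.05, 1.04 and 1.07 with normexp followed by quantile normalization, which left gaps of 0.82 within the miR-10 pair and 0.035 within the miR-196 pair. The software totals gave 0.68, 1.88, 1.94 and 2.17, and without the total carried over from the entry before, an alternative chosen after seeing the data, 0.39, 1.58, 1.64 and 1.87, both with a miR-10 gap of 1.19. No carried-over total was held by the members themselves, so their own totals were the same in both. The median of all miRNAs moved from 0.30 to 0.01 between these settings. The brightest probe gave 0.24, 1.35 and 1.41 for the first 3, with a gap of 1.11, and the deposited values 1.62, 1.64 and 1.76 for the last 3, with a gap of 1.48. Over all 257 miRNAs, the count at least 2-fold lower, 45 in the main setting, was 13 with all probes setting the percentile, 13 without scaling, 14 with spike-ins and 9 with normexp and quantile normalization. With the software totals it was 24 of 304. The count higher, 40 of 257 (15.6%) in the main setting, was 16 with normexp and quantile normalization and 59 without scaling, also of 257. It was 80 of 304 (26.3%) with the totals and 62 of 304 (20.4%) without carry-over. The scaling choices moved the median of all miRNAs by up to 0.43, from -0.22 in the main setting to 0.22 with all probes setting the percentile. Relative to that median miR-10a-5p stayed 0.13 to 0.46 above it in 13 alternatives. No member reversed. Named miRNAs that did were miR-455-5p, miR-206-3p, miR-150-5p, miR-126-3p and miR-451a. No paired analysis was possible because each group has 1 array. The number of arrays and 1 miR-196a-5p probe near background in control limit the values.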

Other observations

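The scanner files also list a genome position for each probe, read against the mature positions of RefSeq. Of the 1407 probes on the plus strand, 1401 lay inside the mature miRNA, and of the 1032 on the minus strand 0 did. Both probes of miR-196b-5p, the only member on the minus strand, were among those outside, while the 4 probes of the plus-strand members with a single gene lay inside. Positions given in the text are therefore those of RefSeq.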
